A study of Mus musculus with 4 samples.

Results

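The genes described here are 9 components of bone morphogenetic protein (BMP) signaling, namely the ligands *Bmp2*, *Bmp3*, *Bmp4* and *Bmp7*, the secreted ligand antagonist *Grem1*, and the inhibitor of DNA binding genes *Id1*, *Id2*, *Id3* and *Id4*. They were chosen by symbol, and all 9 were found among the 28693 genes counted. The study asked how loss of LATS1 and LATS2, kinases of the Hippo pathway, from mouse mammary luminal cells changes the epithelium and the surrounding stroma. Single cells were profiled from 4 mice, with 1 library per mouse and 2 mice per condition. Control (CTL) mice carried *Lats1* f/f and *Lats2* f/f alleles and a heterozygous *R26*-lsl-EYFP reporter without Cre. Knockout (*Lats1/2*-KO) mice carried the same floxed alleles with *Krt8*-CreERT2, and the reporter was heterozygous in *Lats1/2*-KO 1 and homozygous in *Lats1/2*-KO 2. All 4 mice, CTL included, received 2 mg of tamoxifen by intraperitoneal injection on 5 consecutive days and were analyzed 7 days after the last injection. Live cells of glands 3 to 5 were sorted on Calcein Blue. The *Krt8* promoter drives the Cre in luminal cells, so that floxed alleles of other lineages are not its intended targets, and EYFP marks cells in which the reporter was recombined.

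BMPs are secreted dimers of the TGF-β superfamily. They bind type I and type II serine/threonine kinase receptors, which phosphorylate SMAD1, SMAD5 and SMAD9, and these enter the nucleus with SMAD4. The *Id* genes are among the best known direct targets of this cascade, although growth factors and other signals also regulate them. ID proteins carry a helix-loop-helix without a DNA-binding region, pair with E proteins, and thereby keep them from DNA. BMP3 differs from the other ligands in that it mainly opposes BMP and activin signals, and Gremlin-1 captures BMP2, BMP4 and BMP7 outside the cell. In the mammary gland, *Bmp4* is known from mesenchyme and stroma, ID2 from alveolar differentiation, and ID4 from basal cells, where it restrains luminal genes.

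In GRCm38 coordinates, *Bmp4* lies at chr14:46383520-46390669 on the minus strand, *Id1* at chr2:152736251-152737410 on the plus strand, *Id2* at chr12:25093799-25097140 on the minus strand, *Id3* at chr4:136143497-136145755 on the plus strand and *Id4* at chr13:48261228-48266026 on the plus strand. *Bmp2* lies at chr2:133552159-133562885 on the plus strand, *Bmp3* at chr5:98854415-98884396 on the plus strand, *Bmp7* at chr2:172868012-172940321 on the minus strand and *Grem1* at chr2:113746164-113758646 on the minus strand. All are annotated as protein coding. RefSeq promoter sequence (GRCm38.p6, from 250 bases before to 50 bases after the annotated start) was matched for 5 of the 9 genes. RefSeq's start is that of the gene bounds above for *Bmp4*, and differs from them for *Id2*, *Id3* and *Id4*. The sequences of 4 are shown, because *Id2*, *Id3* and *Id4* fell together in basal cells of *Lats1/2*-KO mice and *Bmp4* and *Id3* rose together in luminal ER- cells. They run 5′ to 3′ on the strand of the gene, and capitals mark matches to the letters GGCGCC (a SMAD1/5-type element, its own reverse complement), CAGAC or its reverse complement GTCTG (a SMAD-binding element) and GGAATG or its reverse complement CATTCC (a TEAD-type element).
*Id3*, chr4:136143572-136143871, plus strand: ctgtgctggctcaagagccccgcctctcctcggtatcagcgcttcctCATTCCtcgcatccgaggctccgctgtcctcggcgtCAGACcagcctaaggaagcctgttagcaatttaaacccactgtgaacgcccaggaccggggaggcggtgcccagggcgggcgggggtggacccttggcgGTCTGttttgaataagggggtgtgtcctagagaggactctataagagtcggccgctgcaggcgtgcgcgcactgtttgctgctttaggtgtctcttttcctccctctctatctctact
*Id2*, chr12:25096043-25096342, minus strand: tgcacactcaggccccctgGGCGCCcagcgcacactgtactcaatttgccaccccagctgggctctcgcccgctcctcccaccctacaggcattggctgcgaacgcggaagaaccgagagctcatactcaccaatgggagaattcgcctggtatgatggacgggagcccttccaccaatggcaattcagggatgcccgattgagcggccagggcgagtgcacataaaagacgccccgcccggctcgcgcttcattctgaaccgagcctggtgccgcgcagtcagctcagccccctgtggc
*Id4*, chr13:48260866-48261165, plus strand: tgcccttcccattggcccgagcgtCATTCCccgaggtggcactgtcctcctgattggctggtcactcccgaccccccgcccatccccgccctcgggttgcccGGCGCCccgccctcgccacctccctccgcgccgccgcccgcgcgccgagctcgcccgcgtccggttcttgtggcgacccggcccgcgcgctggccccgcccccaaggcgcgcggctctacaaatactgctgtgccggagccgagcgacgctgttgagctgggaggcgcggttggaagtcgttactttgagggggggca
*Bmp4*, chr14:46390620-46390919, minus strand: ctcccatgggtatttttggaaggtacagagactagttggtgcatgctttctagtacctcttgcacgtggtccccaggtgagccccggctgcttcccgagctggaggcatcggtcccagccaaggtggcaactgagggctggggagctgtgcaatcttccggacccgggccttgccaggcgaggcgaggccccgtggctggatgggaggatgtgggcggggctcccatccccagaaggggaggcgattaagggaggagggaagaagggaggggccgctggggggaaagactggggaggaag
The *Id3* window held 2 matches to the CAGAC letters and 1 to GGAATG, the *Id4* window 1 to GGCGCC and 1 to GGAATG, and the *Id2* window 1 to GGCGCC. None of these letters occurred in the *Bmp4* window. Over 32851 mouse promoters of this length, 11.9% held GGCGCC, 49.6% held CAGAC or GTCTG and 14.7% held GGAATG or CATTCC, so that matches of this kind are common and describe only the letters of the window.

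The files held 20324 barcodes, of which 18200 were kept, those in which over 500 genes were detected and mitochondrial genes held less than 20% of counts. The libraries kept 3515 to 5272 cells and 38792520 to 46810771 unique molecular identifiers (UMIs). Cells were assigned to lineages by summed marker genes that did not include the 9 genes. Luminal ER- cells (the hormone receptor-negative luminal cells, marked by *Elf5* and *Kit*) numbered 2912 and 2104 in CTL and 2032 and 2037 in *Lats1/2*-KO mice. Luminal ER+ cells (hormone-sensing cells, marked by *Esr1* and *Pgr*) numbered 1118 and 806 against 471 and 148. In the basal gate there were 193 and 161 against 380 and 462 cells, in the fibroblast gate 56 and 22 against 281 and 850, and in the endothelial gate 39 and 35 against 221 and 216. A further 537 and 556 luminal cells of *Lats1/2*-KO mice, against 7 and 8 of CTL mice, passed neither luminal gate. Perivascular cells, macrophages and lymphocytes had under 20 cells in at least 1 library and were not tested. Levels are given as UMIs per 1000000 UMIs of the lineage in that library (CPM), in the order CTL 1, CTL 2, *Lats1/2*-KO 1 and *Lats1/2*-KO 2. Log2 fold changes with standard errors (SE) come from edgeR on the summed counts with composition scaling, adjusted over all genes tested, and are called at an adjusted p under 0.05. In luminal ER- cells the scaling factors were 0.883 and 0.886 in CTL and 1.12 and 1.14 in *Lats1/2*-KO libraries, so that a fitted change there lies below the plain ratio of CPM. Values are from 3′ tags and are compared between samples, not between genes.

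The targeted genes and the reporter were examined first. *Lats1* in luminal ER- cells was at 25.6 and 25.3 CPM in CTL and 15.0 and 18.5 CPM in *Lats1/2*-KO libraries (log2 change -0.96 ± 0.13 SE, adjusted p = 0.000567), whereas in luminal ER+ cells it did not pass (log2 -0.01 ± 0.16 SE, adjusted p = 0.964). *Lats2* in luminal ER- cells was at 15.2 and 16.8 against 28.6 and 29.5 CPM and was called higher (log2 0.51 ± 0.11 SE, adjusted p = 0.00541). A 3′ tag can lie outside the deleted part, so that the counts of *Lats1* and *Lats2* do not check the labels in either direction. EYFP was detected in 17.9% and 21.2% of luminal ER- cells of *Lats1/2*-KO mice and in 0.275% and 0.38% of those of CTL mice. Luminal ER- cells of *Lats1/2*-KO libraries also held more basal marker RNA (12 of 12 markers detected in every library, 57.1 and 47.1 against 1351 and 952 CPM in sum) and more fibroblast marker RNA (9 and 7 of 9 markers in CTL and 9 of 9 in *Lats1/2*-KO libraries, 15.7 and 15.2 against 247.5 and 260.7 CPM in sum). Their own luminal ER- marker list was at 17995 and 21816 against 14156 and 15710 CPM. CTL and *Lats1/2*-KO cells of this gate fell into different clusters, with 97.9% of CTL cells in 1 cluster and 58.1% and 30.6% of *Lats1/2*-KO cells in 2 others. The part of these differences in the results below was not tested.

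In control glands the ligands differed in the lineages that held them. *Bmp4* was highest in fibroblasts, at 70.7 and 73.2 CPM, and in endothelial cells, at 61.6 and 60.6 CPM. It was far lower in the epithelium, at 1.21 and 5.64 CPM in basal, 3.38 and 1.62 CPM in luminal ER+ and 0.688 and 0.602 CPM in luminal ER- cells. The basal and luminal ER+ ranges overlapped, and each other step in this order was larger than the spread of the 2 libraries. The fibroblast and endothelial levels rest on only 23 and 25 counts over both libraries, so that the order of these 2 lineages was not settled. *Bmp7*, a ligand also made by epithelia, was highest in basal cells, at 21.9 and 32.4 CPM, followed by fibroblasts at 13.3 and 20.9 CPM. The fibroblast level rests on only 5 counts over both libraries. Among the epithelial gates *Bmp3* was highest in luminal ER+ cells, at 11.2 and 16.9 CPM, against 0.153 and 0.278 CPM in luminal ER- cells. Fibroblasts of CTL mice also had *Bmp3* at 17.7 and 20.9 CPM, but on only 4 and 2 counts. *Bmp2* was at 15.4 and 37.3 CPM in endothelial cells and at 4.13 and 7.46 CPM in luminal ER- cells. The 20 and 6 perivascular cells of CTL mice had *Bmp2* at 143 and 283 CPM. *Grem1* was near the limit of detection, with 0 counts in CTL fibroblasts, where 3 counts over both libraries would amount to 9.32 CPM.

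The ID genes divided the control gland differently. Among lineages with at least 20 cells in both CTL libraries, *Id1* was highest in endothelial cells, at 549.6 and 611 CPM, and next at 30.9 and 41.8 CPM in fibroblasts and 37.7 and 29.6 CPM in basal cells, 2 ranges that overlapped. *Id3* was highest in the stroma, at 1326 and 1066 CPM in fibroblasts and 801 and 1031 CPM in endothelial cells. It was at 243 and 228 CPM in basal cells and 224 and 218 CPM in luminal ER+ cells, yet at only 9.1 and 9.41 CPM in luminal ER- cells. *Id4* was nearly restricted to basal cells among the epithelial gates, at 199 and 307 CPM against 2.94 and 3.80 CPM in luminal ER- and 1.27 and 0.862 CPM in luminal ER+ cells. *Id2* was spread most evenly, from 18.7 and 22.8 CPM in luminal ER+ cells to 280.2 and 698 CPM in lymphocytes. The lineage with the highest mean over both conditions, taken over lineages with 20 or more cells in the libraries used, was the same for 5 of the 8 genes with such a level when lineages were taken from clusters instead of gates. *Bmp4* moved from endothelial cells to a cluster named for luminal cells past neither gate. *Bmp2* and *Id3*, highest in perivascular cells, could not stay there because no cluster was named perivascular.

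Luminal ER- cells, a population that the *Krt8*-driven Cre reaches, gained *Bmp4*, *Id1* and *Id3* in *Lats1/2*-KO mice. Of the 9 genes, 6 had enough counts for the test, 3 rose and 2 fell, and *Id2* did not pass. Over all 13402 genes tested in this lineage, 59.7% were called, 31.1% as higher and 28.6% as lower, so that being called is by itself no mark of these genes. *Bmp4* was at 0.688 and 0.602 CPM in CTL and 9.29 and 11.1 CPM in *Lats1/2*-KO libraries. Both *Lats1/2*-KO libraries stood far above both CTL libraries, and the fitted change was 12.2-fold (log2 3.61 ± 0.24 SE, adjusted p = 2.87e-05). The level in *Lats1/2*-KO luminal ER- cells remained below that of CTL fibroblasts and endothelial cells given above. *Bmp2* went the other way, from 4.13 and 7.46 CPM to 2.65 and 2.41 CPM (log2 -1.54 ± 0.31 SE, adjusted p = 0.00422). *Bmp3* stayed at or under 0.4 CPM in every library, *Bmp7* was at 0.115 and 0.0463 against 0.5 and 0.447 CPM, and these 2 genes and *Grem1* were below the count filter.

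Among the ID genes of luminal ER- cells, *Id3* changed most in the main analysis. Its 9.1 and 9.41 CPM in CTL stood against 98.2 and 115 CPM in *Lats1/2*-KO libraries, a fitted 9.01-fold rise (log2 3.17 ± 0.12 SE, adjusted p = 4.81e-06). *Id1* was at 8.25 and 13.6 CPM in CTL and 65.5 and 65.9 CPM in *Lats1/2*-KO libraries, a 4.73-fold rise (log2 2.24 ± 0.21 SE, adjusted p = 0.000113). Neither gene's groups overlapped. *Id2* was at 50.1 and 71.4 against 52.7 and 95.6 CPM, with overlapping groups and no change past the threshold (log2 -0.07 ± 0.27 SE, adjusted p = 0.843). *Id4*, already low here, was at 2.94 and 3.80 against 2.35 and 2.81 CPM (log2 -0.73 ± 0.25 SE, adjusted p = 0.0352). That call for *Id4* was lost without CTL 2 (log2 -0.55, adjusted p = 0.221), without *Lats1/2*-KO 1 (log2 -0.65, adjusted p = 0.0866) and under 3 other settings, with adjusted p between 0.0149 and 0.221 over all alternatives. The *Id3* change kept its call under every alternative. It shrank to 1.43 on the log2 scale when cells with markers of more than 1 lineage, otherwise left out, were given to their highest-scoring lineage. The *Id1* change was 1.91 or more under every alternative, so that *Id1* changed more than *Id3* under that setting.

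The shares of cells with a UMI were compared at equal depth. With luminal ER- cells thinned to 2000 UMIs, leaving out 97 and 41 shallower cells of CTL and 123 and 99 of *Lats1/2*-KO mice, *Id3* was detected in 1.67% (95% exact interval 1.23 to 2.21%) and 1.89% (1.35 to 2.58%) of CTL cells and in 12% (10.6 to 13.5%) and 16.1% (14.5 to 17.8%) of *Lats1/2*-KO cells. Unthinned shares were 5.91% and 7.51% against 35.9% and 41.1%. *Id1* was detected in 1.49% and 3.1% of thinned CTL cells and 10.4% and 10.4% of thinned *Lats1/2*-KO cells. Macrophages of the *Lats1/2*-KO mice, thinned alike, had *Id1* in 7.22% (4.0 to 11.8%) and 8.33% (5.30 to 12.3%) and *Id3* in 9.79% (6.0 to 14.9%) and 9.47% (6.22 to 13.7%) of cells, so that of the luminal ER- shares of *Lats1/2*-KO mice only that of *Id3* in *Lats1/2*-KO 2 lay outside the interval of the same library. For *Bmp4* the thinned shares were 0.142% and 0.194% against 1.62% and 1.65%, so that most *Lats1/2*-KO luminal ER- cells had no *Bmp4* UMI at this depth. Lymphocytes, a type that should lack *Bmp4*, showed it in 0 of 122 and 0 of 48 thinned cells of CTL mice and 0 of 45 of *Lats1/2*-KO 2, where 3 cells would be 2.46%, 6.25% and 6.67%. Macrophages, a second such type, showed it in 0 of 194 thinned cells of *Lats1/2*-KO 1 (95% exact interval 0 to 1.88%) and in 0.758% (0.0919 to 2.71%) of 264 cells of *Lats1/2*-KO 2, and these intervals include the 1.62% and 1.65% of luminal ER- cells of the same mice. These intervals cover counting error only. An estimate from genes of other lineages put free RNA at 4.05% and 3.13% of UMIs in luminal ER- cells of CTL and 8.33% and 6.72% in those of *Lats1/2*-KO mice, and after its subtraction the *Id3* change in these cells was 3.83 on the log2 scale.

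In luminal ER+ cells, *Id1* was the 1 gene of 6 tested that was called, and it rose, where 27.8% of all 12150 genes tested were called, 14.6% as higher and 13.2% as lower. *Id1* was at 3.09 and 5.27 CPM in CTL and 20.8 and 26.0 CPM in *Lats1/2*-KO libraries (log2 2.41 ± 0.29 SE, adjusted p = 0.00377). *Bmp4* stood higher in both *Lats1/2*-KO libraries, at 3.38 and 1.62 against 5.75 and 20.9 CPM, but the libraries differed among themselves and the change missed the threshold (log2 2.20 ± 0.66 SE, adjusted p = 0.0538). It was called under 6 alternatives, DESeq2 (adjusted p = 0.00731), no count filter, equal depth, mixed cells, without CTL 1 (log2 2.78, adjusted p = 0.0111) and without *Lats1/2*-KO 1 (log2 2.97, adjusted p = 0.0421), and was at 1.19 without *Lats1/2*-KO 2 and 0.33 with lineages from clusters. *Id3* was at 224 and 218 against 274 and 391 CPM (log2 0.53 ± 0.17 SE, adjusted p = 0.058) and was called under 4 alternatives, DESeq2, equal depth, lineages from clusters and without *Lats1/2*-KO 1. *Bmp3*, highest in this lineage among the epithelial gates, was at 11.2 and 16.9 against 13.6 and 17.7 CPM, with overlapping groups (log2 0.08 ± 0.26 SE, adjusted p = 0.857). *Id2* was at 18.7 and 22.8 against 21.1 and 49.4 CPM, and *Id4* reached at most 3.17 CPM in any library. *Lats1/2*-KO 2 held only 148 of these cells. Without *Lats1/2*-KO 1, 4 of the genes were called. CTL and *Lats1/2*-KO cells of this gate lay mostly in different clusters, which held 93.2% and 85.3% of them. Beside these values, basal marker RNA in the gate was at 34.4 and 29.6 against 333 and 400.3 CPM in sum.

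The change in *Id3* differed between the luminal lineages by a test of the difference itself. The *Lats1/2*-KO effect in luminal ER+ cells was lower than that in luminal ER- cells by 2.60 on the log2 scale (-2.60 ± 0.14 SE, adjusted p = 1.79e-05). *Id2* differed in the other direction, by 0.76 (± 0.18 SE, adjusted p = 0.0175). No difference between the lineages passed for *Id1* (0.23 ± 0.21 SE, adjusted p = 0.48) or *Bmp4* (-1.44 ± 0.59 SE, adjusted p = 0.118). The *Bmp4* difference was called under 6 alternatives, between -1.50 without the count filter and -3.62 with lineages from clusters, among them without CTL 2 (-1.81, adjusted p = 0.0036) and without *Lats1/2*-KO 2 (-2.24, adjusted p = 0.0344). Nor did it pass for *Bmp2* (3.29 ± 1.18 SE, adjusted p = 0.0772), *Bmp3* (0.07 ± 0.67 SE, adjusted p = 0.963), *Bmp7* (-3.01 ± 1.2 SE, adjusted p = 0.107) or *Id4* (1.57 ± 0.61 SE, adjusted p = 0.101). In this test 22.9% of 13957 genes differed, 12.9% with the higher and 9.94% with the lower effect in luminal ER+ cells. The *Id2* difference lost its call under 5 of the alternatives, among them without *Lats1/2*-KO 2 and with lineages from clusters, where it was 0.09 (adjusted p between 0.000862 and 0.694 over all), and the *Id3* difference shrank to -0.86 with mixed cells included.

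In basal cells, which are not the target of *Krt8*-driven Cre, 3 ID genes fell and none rose. EYFP was found in 7.37% and 8.01% of basal cells of *Lats1/2*-KO mice and in 0.518% and 1.24% of those of CTL mice, beside 1.78% and 2.35% of *Lats1/2*-KO fibroblasts and 1.66% and 2.41% of *Lats1/2*-KO macrophages, at median depths of 5542 and 5807 UMIs in basal cells, 4902 and 4852 in fibroblasts and 4014 and 3381 in macrophages. With the free RNA given below, whether these basal cells expressed EYFP was not tested. Of 6 genes tested, 3 were lower, where 33% of all 9766 genes tested were called, 16.7% as higher and 16.3% as lower. *Id4* was at 199 and 307 CPM in CTL and 96.2 and 70.9 CPM in *Lats1/2*-KO libraries (log2 -1.72 ± 0.21 SE, adjusted p = 0.000165). *Id2* was at 114 and 129.7 against 38.0 and 51.1 CPM (log2 -1.55 ± 0.18 SE, adjusted p = 0.000113), and *Id3* at 243 and 228 against 86.5 and 144 CPM (log2 -1.15 ± 0.21 SE, adjusted p = 0.00186). For each of the 3 genes both *Lats1/2*-KO libraries lay below both CTL libraries, and each call held under all alternatives run. *Id1* overlapped between groups at 37.7 and 29.6 against 23.0 and 32.5 CPM (log2 -0.39 ± 0.27 SE, adjusted p = 0.297), and was called lower with lineages from clusters (log2 -0.79, adjusted p = 0.0492). *Bmp7*, the basal ligand, was at 21.9 and 32.4 against 29.5 and 32.2 CPM (log2 0.09 ± 0.25 SE, adjusted p = 0.829). *Bmp4* was at 1.21 and 5.64 against 6.46 and 7.39 CPM (log2 0.96 ± 0.62 SE, adjusted p = 0.268). This *Bmp4* change rests on 5 counts in CTL and lay between 0.22 and 2.35 with a library left out. Basal marker RNA in this gate was at 10182 and 13403 against 9601 and 9564 CPM, and luminal ER- marker RNA at 3251 and 3397 against 3393 and 3230 CPM. Free RNA was estimated at 19.7% and 15.4% of UMIs in basal cells of CTL and 23.1% and 18.7% in those of *Lats1/2*-KO mice, the highest of the epithelial gates, and the 3 calls held after its subtraction. CTL and *Lats1/2*-KO basal cells lay mostly in different clusters, which held 96.6% and 85.0% of them.

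All 4 ID genes thus moved differently in basal than in luminal ER- cells, and that difference was tested. The effect in basal cells minus that in luminal ER- cells was -4.18 ± 0.18 SE for *Id3* (adjusted p = 6.47e-19), -2.49 ± 0.32 for *Id1* (adjusted p = 3.05e-07), -1.35 ± 0.19 for *Id2* (adjusted p = 1.48e-06) and -0.83 ± 0.26 for *Id4* (adjusted p = 0.0175), all on the log2 scale. Over all 13689 genes, 20.7% differed, 13.5% with the higher and 7.26% with the lower effect in basal cells. *Id3*, which was far apart in basal and luminal ER- cells of CTL mice, lay at 86.5 and 144 CPM in basal and 98.2 and 115 CPM in luminal ER- cells of *Lats1/2*-KO mice, 2 ranges that overlapped. The *Id3* difference was called under every alternative and lay between -5.23, with free RNA subtracted, and -2.43, with mixed cells included. The *Id4* difference lost its call under 5 alternatives, among them without CTL 2 (adjusted p = 0.0915) and without *Lats1/2*-KO 2 (adjusted p = 0.269), with a range of 0.00161 to 0.718 over all. The *Bmp4* difference was -2.47 ± 0.92 SE (adjusted p = 0.0538) and was called under 6 alternatives, among them lineages from clusters (-4.04, adjusted p = 0.00115), free RNA subtracted (-3.64, adjusted p = 0.0359) and without CTL 1 (-3.35, adjusted p = 0.014). Those of *Bmp2* (0.45 ± 1.05 SE, adjusted p = 0.823) and *Bmp7* (-1.77 ± 0.78 SE, adjusted p = 0.113) did not pass. The *Bmp7* difference was called with luminal cells past neither gate counted as luminal ER- (-2.02, adjusted p = 0.0499). With a library left out it lay between -2.78 and -1.08.

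**Figure D1:**
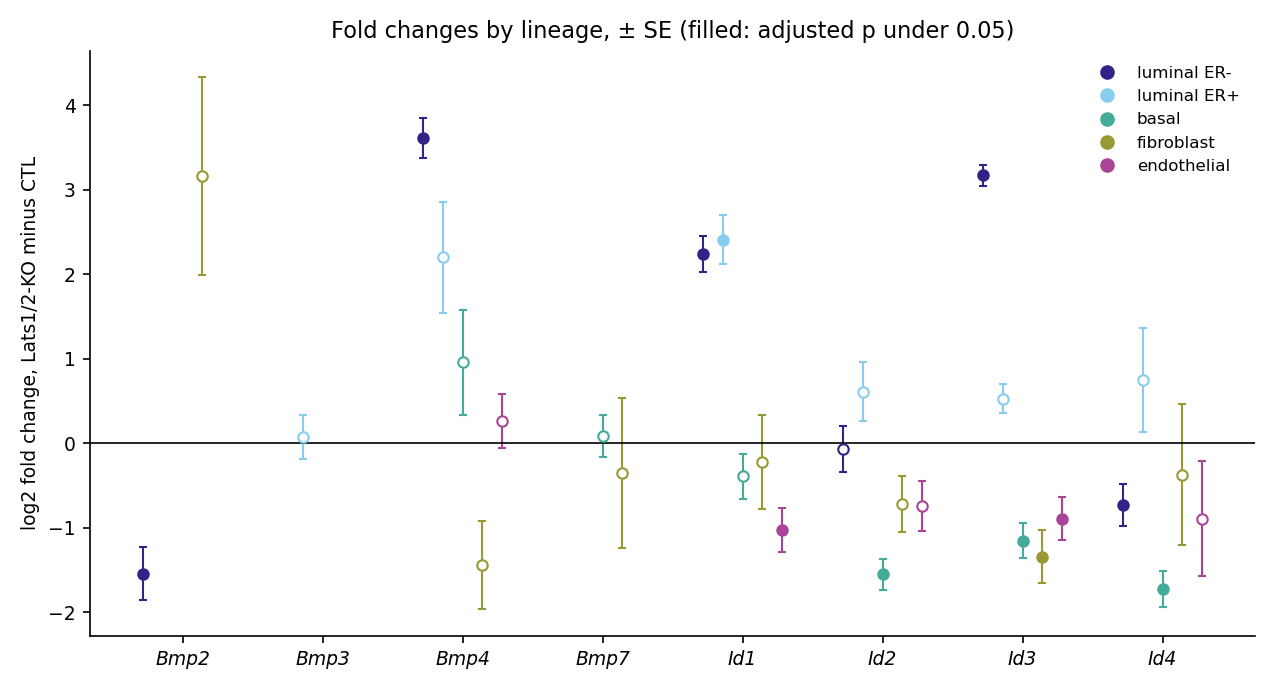
Fitted log2 fold change of *Lats1/2*-KO over CTL (points, with bars of 1 SE) for the tested genes in the 5 lineages tested, with filled points for adjusted p under 0.05. *Bmp4*, *Id1* and *Id3* lie above 0 in luminal ER- cells, and *Id2*, *Id3* and *Id4* lie below 0 in basal cells.

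In the stroma, which the Cre does not target, *Id3* was the 1 gene called in fibroblasts, of 7 tested, and it fell. Over all 7788 genes tested there, 6.29% were called, 3.24% as higher and 3.06% as lower. *Id3* was at 1326 and 1066 CPM in CTL and 340.4 and 523 CPM in *Lats1/2*-KO fibroblasts (log2 -1.34 ± 0.31 SE, adjusted p = 0.024). This call rests on 56 and 22 CTL cells and was lost without CTL 1 (adjusted p = 0.325) and without CTL 2 (log2 -1.47, adjusted p = 0.0893), and its adjusted p ranged from 1.89e-06 to 0.325 over all alternatives. Of the CTL fibroblasts 98.7% lay in 1 cluster, which held 82.8% of the *Lats1/2*-KO fibroblasts, while 16.4% of the latter (185 cells) and no CTL fibroblast lay in a cluster that also held perivascular cells. The *Id3* call held with lineages taken from clusters. *Bmp4* stood lower in both *Lats1/2*-KO libraries, at 70.7 and 73.2 against 12.7 and 32.2 CPM, without passing the threshold (log2 -1.44 ± 0.52 SE, adjusted p = 0.134). With the replicate number as a block it was called (log2 -1.72, adjusted p = 0.0049), and it lay between -2.35 and -0.94 with a library left out. *Bmp2* went from 0 and 1 count in CTL to 17.1 and 32.9 CPM, 177 counts in all. The ratio of summed counts was 9.29, with a 95% counting interval of 1.65 to 369, and the change did not pass (adjusted p = 0.14), though it was called without the count filter (log2 3.30, adjusted p = 0.0233) and lay between 1.62 and 8.80 with a library left out. *Bmp3* was below the count filter, with 4 and 2 counts in CTL, or 17.7 and 20.9 CPM, against 0 and 1 count in *Lats1/2*-KO fibroblasts, or 0 and 0.219 CPM. The ratio of its summed counts was 0.00875, with a 95% counting interval of 0.00019 to 0.0721, which covers counting error only. *Id2*, at 133 and 219 against 81.9 and 102 CPM, also did not pass (adjusted p = 0.228). Nor did *Id1* (log2 -0.22 ± 0.56 SE, adjusted p = 0.875), *Id4* (log2 -0.37 ± 0.83 SE, adjusted p = 0.857) or *Bmp7* (log2 -0.35 ± 0.89 SE, adjusted p = 0.877), whose groups overlapped. Among fibroblasts, *Grem1* appeared only in those of *Lats1/2*-KO mice, with 4 and 6 counts or 2.54 and 1.32 CPM. This lies under the 9.32 CPM that 0 counts in the CTL fibroblasts allows, so that a difference was not detectable at this depth.

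Endothelial cells had the highest *Id1* of the tested lineages in both conditions, and *Id1* and *Id3* fell there. Of 5 genes tested these 2 were called, against 8.64% of all 6760 genes tested, 3.89% higher and 4.75% lower. *Id1* was at 549.6 and 611 CPM in CTL and 199 and 351 CPM in *Lats1/2*-KO libraries (log2 -1.03 ± 0.26 SE, adjusted p = 0.0259). *Id3* was at 801 and 1031 against 366 and 586 CPM (log2 -0.89 ± 0.25 SE, adjusted p = 0.0376). *Bmp4* did not move past the threshold, at 61.6 and 60.6 against 77.4 and 64.9 CPM (log2 0.27 ± 0.32 SE, adjusted p = 0.683). *Id2* was lower in both *Lats1/2*-KO libraries, at 139 and 229 against 84.2 and 128.8 CPM, without passing (log2 -0.74 ± 0.30 SE, adjusted p = 0.15), and was called without CTL 1 (log2 -1.04, adjusted p = 0.0159) and without *Lats1/2*-KO 2 (log2 -1.05, adjusted p = 0.0436). *Id4* did not pass either (log2 -0.89 ± 0.68 SE, adjusted p = 0.486). *Bmp2* had too few counts for the test, at 15.4 and 37.3 against 3.87 and 9.83 CPM. The calls rest on 39 and 35 CTL cells. *Id1* lost its call without *Lats1/2*-KO 1 (log2 -0.61, adjusted p = 0.261) and without the count filter (log2 -0.91, adjusted p = 0.424), and *Id3* lost it without *Lats1/2*-KO 1 (log2 -0.53, adjusted p = 0.326), without CTL 2 (log2 -0.71, adjusted p = 0.0603) and under 4 other settings. Over all alternatives the adjusted p ranged from 0.000225 to 0.424 for *Id1* and from 0.000458 to 0.446 for *Id3*. At 2000 UMIs per cell, *Id1* was found in 45.5% and 54.8% of CTL and 23.1% and 35.6% of *Lats1/2*-KO endothelial cells, and in 7.22% and 8.33% of *Lats1/2*-KO macrophages. *Id3* was found in 69.7% and 87.1% against 45.7% and 51.4% of endothelial cells, and in 9.79% and 9.47% of these macrophages. Without thinning, the endothelial shares were 61.5% and 82.9% against 36.2% and 47.7% for *Id1* and 84.6% and 91.4% against 59.3% and 66.2% for *Id3*.

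The lineages with too few cells for a test add levels only. Perivascular cells (20 and 6 in CTL, 66 and 81 in *Lats1/2*-KO mice) had *Id3* at 2574 and 2012 against 926 and 1199 CPM, *Id1* at 358 and 314 against 63.7 and 148 CPM, and *Bmp2* at 143 and 283 against 26.2 and 58.7 CPM. Macrophages of *Lats1/2*-KO mice had *Id2* at 315 and 433 CPM, and lymphocytes had it at 280.2 and 698 CPM in CTL and 181 and 541 CPM in *Lats1/2*-KO mice. The luminal cells of *Lats1/2*-KO mice that passed neither luminal gate had *Bmp4* at 51.3 and 51.3 CPM, above both luminal gates and the fibroblasts of the same mice. Their *Id3* was at 183 and 218 CPM, *Id1* at 61.0 and 50.3 CPM and *Id2* at 46.4 and 71.3 CPM. EYFP was found in 50.7% and 61.9% of them, and their basal marker RNA summed to 4187 and 3113 CPM. Thinned to 2000 UMIs, 9.72% and 10.4% of these cells had a *Bmp4* UMI.

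EYFP was then used to split luminal cells within the *Lats1/2*-KO mice, with each mouse as a block and both luminal gates together. *Bmp4*, *Bmp3* and *Id3* were higher in EYFP-positive cells, 3 of 7 genes tested, where 34.4% of all 12620 genes tested were called, 16.9% as higher and 17.5% as lower. *Bmp4* was at 4.46 CPM in EYFP = 0 and 20.8 CPM in EYFP-positive cells of *Lats1/2*-KO 1, and at 6.59 and 22.2 CPM in those of *Lats1/2*-KO 2 (log2 1.95 ± 0.17 SE, adjusted p = 6.39e-10). The difference was present in each luminal gate. Within luminal ER- cells *Bmp4* was at 5.10 and 6.21 CPM in EYFP = 0 and 19.8 and 20.9 CPM in EYFP-positive cells. Within luminal ER+ cells it was at 1.93 and 11.7 CPM against 30.9 and 42.9 CPM, on 7 to 20 counts per sum. *Id3* differed less, at 121.7 and 113.5 CPM in EYFP = 0 and 147.9 and 173.6 CPM in EYFP-positive cells (log2 0.43 ± 0.07 SE, adjusted p = 3.15e-05), a call lost without the mouse block (adjusted p = 0.122), and within luminal ER- cells alone by 0.71 (± 0.06 SE, adjusted p = 1.4e-12). *Bmp3* was at 2.45 and 0.746 against 3.36 and 2.54 CPM (log2 0.93 ± 0.36 SE, adjusted p = 0.0492), a call lost under 5 alternatives, with adjusted p of 0.0332 to 0.656. In *Lats1/2*-KO 1 alone the *Bmp3* difference was 0.45 and in *Lats1/2*-KO 2 alone 1.73, and that of *Id3* was 0.28 and 0.59.

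*Id1* did not follow EYFP in the same way. It was at 52.7 and 66.7 CPM in EYFP = 0 and 72.3 and 56.3 CPM in EYFP-positive luminal cells, higher in 1 mouse and lower in the other (log2 0.08 ± 0.11 SE, adjusted p = 0.588). In luminal ER+ cells alone it was at 15.4 and 13.5 CPM in EYFP = 0 and 56.3 and 55.8 CPM in EYFP-positive cells, on 15 to 56 counts per sum, while in luminal ER- cells it was at 62.1 and 70.6 against 73.9 and 56.3 CPM. *Bmp2* (log2 -0.41 ± 0.35 SE, adjusted p = 0.384), *Id2* (log2 -0.13 ± 0.08 SE, adjusted p = 0.209) and *Id4* (log2 -0.72 ± 0.35 SE, adjusted p = 0.111) did not pass. *Id2* was called lower within luminal ER- cells alone (log2 -0.24, adjusted p = 0.00955), and *Id4* with lineages from clusters (log2 -1.15, adjusted p = 0.00564) and with cells past neither gate added (log2 -1.20, adjusted p = 0.0113). *Bmp2* was also called lower with cells past neither gate added (log2 -0.85, adjusted p = 0.0416). EYFP-positive cells were deeper, with medians of 13891 and 15403 UMIs in luminal ER- cells against 6823 and 7190.5 UMIs in EYFP = 0 cells, and a cell with 0 EYFP UMIs may still carry a recombined allele. With cells thinned to 2000 UMIs, 2 of the genes were called. *Lats1* was lower in EYFP-positive cells (log2 -0.81 ± 0.14 SE, adjusted p = 5.69e-05), and *Lats2* did not pass (log2 0.10 ± 0.11 SE, adjusted p = 0.51).

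**Figure D2:**
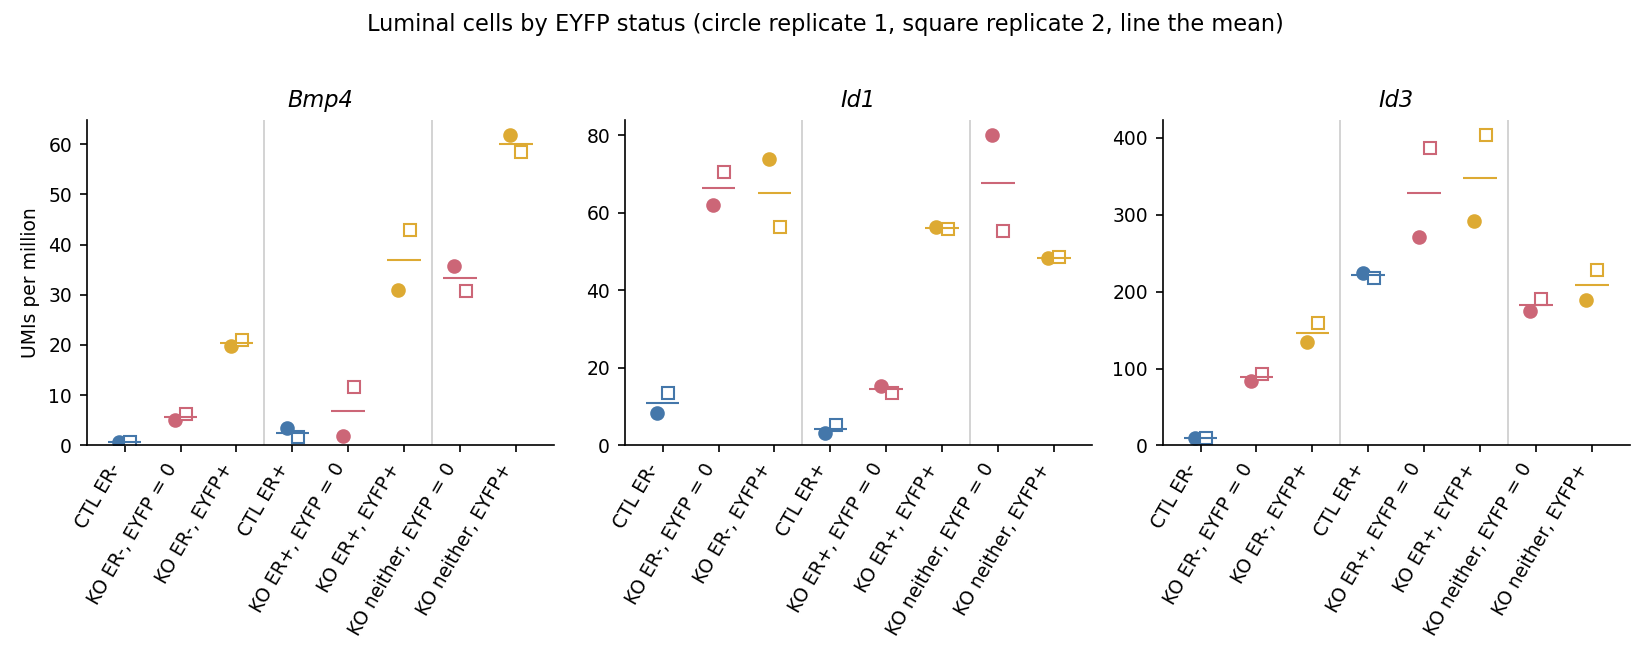
Levels (CPM, linear axis) in luminal cells of CTL mice and in EYFP = 0 and EYFP-positive luminal cells of *Lats1/2*-KO mice, with 1 point per library. *Bmp4* steps up from EYFP = 0 to EYFP-positive cells in both mice, whereas *Id1* in luminal ER- cells is high in both classes.

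EYFP = 0 luminal cells of *Lats1/2*-KO mice also differed from luminal cells of CTL mice. Of 8 genes tested 2 were higher and 1 was lower, where 47% of all 13922 genes tested were called, 24.5% as higher and 22.6% as lower. *Id1* was at 6.49 and 10.3 CPM in CTL and 52.7 and 66.7 CPM in EYFP = 0 cells (log2 2.62 ± 0.24 SE, adjusted p = 0.00112). *Bmp4* was at 1.63 and 1.01 against 4.46 and 6.59 CPM (log2 1.84 ± 0.33 SE, adjusted p = 0.00776). *Bmp2* was at 2.86 and 4.58 against 2.51 and 2.55 CPM and did not pass (log2 -0.76 ± 0.29 SE, adjusted p = 0.079), but was called lower at equal depth (log2 -0.92, adjusted p = 0.0294) and without CTL 1 (log2 -1.06, adjusted p = 0.0411). *Bmp3* was at 3.98 and 6.88 against 2.45 and 0.746 CPM (log2 -1.94 ± 0.53 SE, adjusted p = 0.0284), and this call was lost without CTL 2 (log2 -1.52, adjusted p = 0.0578) or without *Lats1/2*-KO 2 (log2 -1.33, adjusted p = 0.0539), with a range of 0.00138 to 0.0578. Within luminal ER+ cells alone, *Bmp3* was at 11.2 and 16.9 CPM in CTL and 11.9 and 10.8 CPM in EYFP = 0 cells, and luminal ER+ cells were fewer in *Lats1/2*-KO libraries, at 471 and 148 against 1118 and 806. The part of these numbers in the *Bmp3* change was not tested. *Id2* (log2 0.43 ± 0.31 SE, adjusted p = 0.291), *Id4* (log2 -0.02 ± 0.25 SE, adjusted p = 0.956) and *Bmp7* (log2 -0.23 ± 0.40 SE, adjusted p = 0.665) did not pass. *Id3* was at 84.1 and 92.3 against 121.7 and 113.5 CPM over both gates, and did not pass (log2 0.21 ± 0.10 SE, adjusted p = 0.127). Within luminal ER- cells, however, *Id3* of EYFP = 0 cells was at 84.0 and 93.3 CPM, against 9.14 and 9.46 CPM in CTL. The 2 EYFP comparisons share the EYFP = 0 sums.

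The 52 further genes of the BMP pathway were examined as a list. In luminal ER- cells 35 were tested, 15 rose and 9 fell, with a median log2 change of 0.28 against 0.01 over all genes. All 9 tested antagonists and modulators changed, 6 upward and 3 downward, where 59.7% of all genes were called. *Fst*, the activin- and BMP-binding follistatin, was at 1.83 and 1.02 against 112.8 and 75.5 CPM (log2 5.66 ± 0.30 SE, adjusted p = 1.38e-05). *Nog*, the BMP antagonist Noggin, had 0 counts in both CTL libraries and was at 1.45 and 1.43 CPM in *Lats1/2*-KO libraries, at least 22.9-fold higher against 3 counts over the CTL group. *Inhba*, which encodes the activin A subunit, went from 1.15 and 0.649 to 67.4 and 28.1 CPM (log2 5.34 ± 0.52 SE, adjusted p = 0.000151). *Fstl1*, a follistatin-like secreted protein, was at 0.688 and 0.463 against 18.4 and 15.2 CPM (log2 4.48 ± 0.25 SE). Downward went *Acvrl1*, the type I receptor ALK1, from 17.5 and 18.0 to 2.10 and 2.64 CPM (log2 -3.25 ± 0.17 SE, adjusted p = 1.32e-05). *Hey1*, a target of BMP and Notch signals, was at 43.1 and 60.4 against 10.3 and 15.1 CPM (log2 -2.38 ± 0.22 SE). *Bambi*, a pseudoreceptor, was at 30.7 and 29.3 against 15.1 and 14.8 CPM (log2 -1.36 ± 0.11 SE), and the ligand *Gdf5* was at 0.764 and 0.695 against 0.15 and 0.134 CPM (log2 -2.67 ± 0.47 SE).

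The same list gave 13 higher and 3 lower of 35 tested in luminal ER+ cells (median 0.39), 8 and 6 of 30 in basal cells (median -0.07), 4 and 3 of 33 in fibroblasts (median 0.52) and 2 and 6 of 24 in endothelial cells (median -0.26). The shares of all genes called in either direction were 27.8%, 33%, 6.29% and 8.64% in the same order. Medians over all genes of these comparisons were between 0 and 0.08. In luminal ER+ cells 6 of 9 antagonists and modulators rose and none fell, again with *Nog* (0 counts in CTL, 2.39 and 4.43 CPM in *Lats1/2*-KO libraries, at least 27.7-fold higher) and *Fst* (0.503 and 0.352 against 11.5 and 20.9 CPM). The receptor *Bmpr1b* fell in these cells (log2 -2.18 ± 0.53 SE, adjusted p = 0.0277). In basal cells *Inhba* had 0 counts in CTL and was at 36.4 and 20.4 CPM in *Lats1/2*-KO libraries, at least 13.9-fold higher, beside the free RNA given above and 67.4 and 28.1 CPM in luminal ER- cells of the same mice. The part of free RNA in this change was not tested. *Hey1*, *Bambi* and *Acvrl1* fell in basal cells by 2.00, 1.55 and 1.56 on the log2 scale. In fibroblasts the ligand *Gdf10* fell from 212 and 115 to 24.1 and 20.6 CPM and the antagonist *Chrdl1* from 128 and 157 to 15.9 and 24.6 CPM, while *Fst* rose from 35.4 and 31.4 to 189.9 and 201 CPM. In endothelial cells *Acvrl1* (log2 -1.79 ± 0.25 SE, adjusted p = 0.000535), *Hey1* (log2 -1.98 ± 0.44 SE, adjusted p = 0.0123) and *Msx1*, a further BMP target (log2 -2.15 ± 0.49 SE, adjusted p = 0.0135), fell. Of the 3 E proteins that ID proteins bind, 1 was higher in luminal ER- cells, 1 was higher and 1 lower in luminal ER+ and in basal cells, and 2 were lower by EYFP. Of all genes tested, 59.7% were called in luminal ER- cells and 34.4% by EYFP, beside the shares of the other lineages given above. *Tcf4* fell in luminal ER+ cells (log2 -0.74 ± 0.16 SE, adjusted p = 0.0196).

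**Figure D3:**
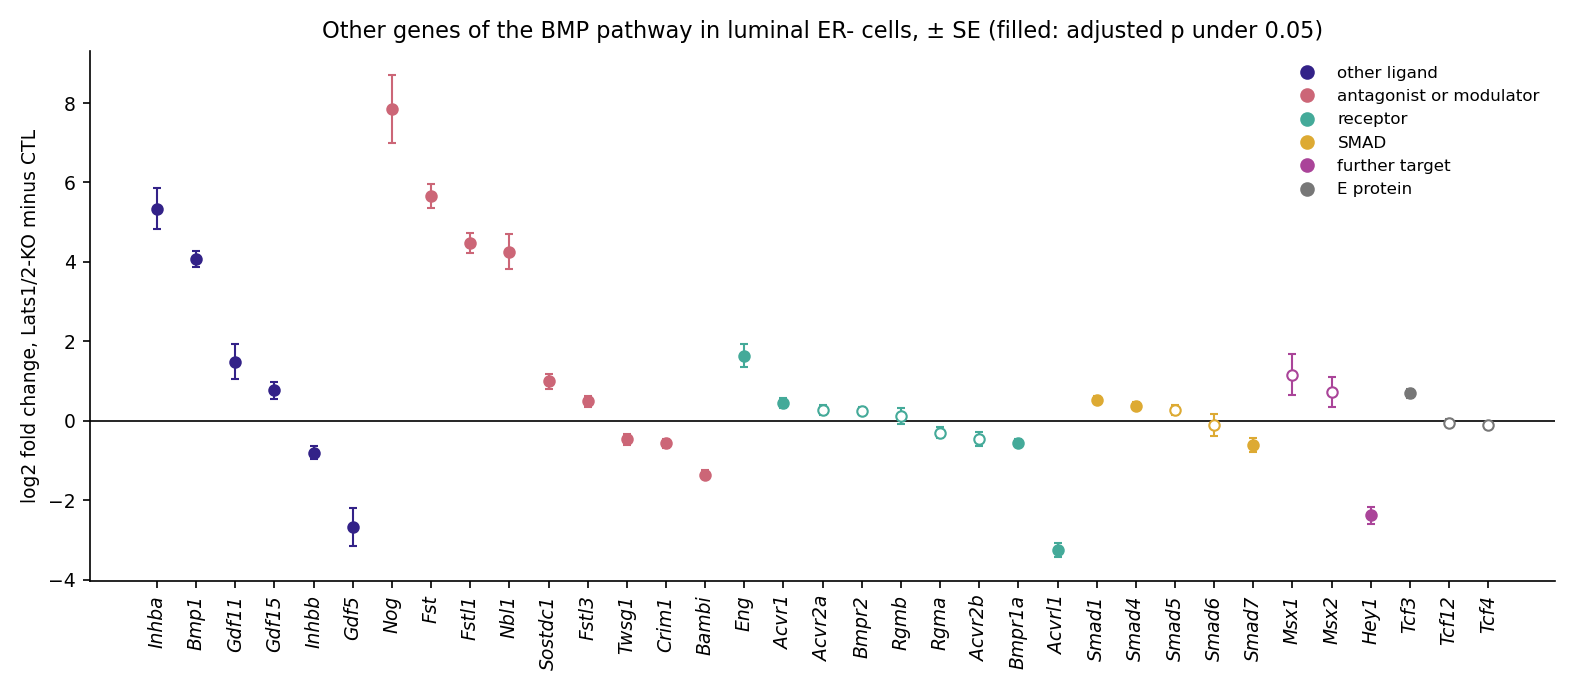
Fitted log2 fold change of *Lats1/2*-KO over CTL in luminal ER- cells for the tested genes of the BMP pathway list, grouped by role, with bars of 1 SE and filled points for adjusted p under 0.05. The antagonists *Nog*, *Fst* and *Fstl1* lie above the line of no change and *Acvrl1*, *Gdf5* and *Hey1* below it.

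By EYFP, 8 list genes were higher and 10 lower in EYFP-positive cells, of 35 tested (median -0.18 against -0.02 over all genes), where 34.4% of all genes were called, 16.9% as higher and 17.5% as lower. *Nog* was at 0.39 and 0.746 CPM in EYFP = 0 and 5.12 and 3.43 CPM in EYFP-positive cells (log2 2.87 ± 0.40 SE, adjusted p = 3.31e-06), and *Fst* at 63.8 and 54.5 against 185.6 and 107.4 CPM (log2 1.25 ± 0.09 SE, adjusted p = 3.97e-11). *Sostdc1*, a secreted BMP and WNT antagonist, was also higher (log2 1.73 ± 0.15 SE, adjusted p = 6.43e-10), as was *Crim1* (log2 0.68 ± 0.08 SE). The receptors *Acvrl1* (log2 -1.15 ± 0.38 SE, adjusted p = 0.0194) and *Eng* (log2 -0.96 ± 0.25 SE, adjusted p = 0.00426), the target *Hey1* (log2 -1.06 ± 0.18 SE, adjusted p = 5.24e-05) and *Fstl1* (log2 -0.55 ± 0.14 SE, adjusted p = 0.00364) were lower in EYFP-positive cells. In EYFP = 0 cells against CTL luminal cells, 17 of 38 were higher and 7 lower (median 0.41 against 0.01, with 47% of all genes called), with *Nog* (0 counts in CTL, 0.39 and 0.746 CPM in EYFP = 0 cells) at least 14.1-fold higher. Dissociation of tissue can induce immediate early genes, and a list of 16 of them moved in these comparisons too. In *Lats1/2*-KO against CTL mice, 3 were higher and 12 lower in luminal ER- cells (median -1.60), 4 and 7 in luminal ER+ cells (median -0.48), 3 and 11 in basal cells (median -0.76), 2 and 1 in fibroblasts (median -0.40) and 2 and 9 in endothelial cells (median -0.82). In EYFP-positive against EYFP = 0 cells 1 was higher and 15 were lower (median -0.47), and in EYFP = 0 cells against CTL 3 were higher and 12 lower (median -1.22). In the tests of the difference from luminal ER- cells, 13 were higher and 0 lower for luminal ER+ cells (median 1.17, 13 at an unadjusted p under 0.05 by edgeR), and 8 were higher and 3 lower for basal cells (median 0.34). Its part in the changes of the *Id* genes was not tested.

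Finally, genes with a pattern like each of the 9 were sought over the 30 sums of lineage and library with at least 20 cells, among 10138 genes, by the Pearson correlation of log2(CPM + 1). The sums share libraries and lineages, so that the values describe likeness and carry no test. *Id4* was most like *Snai2* (r = 0.93) and *Nexn* (r = 0.92). *Id3* was nearest to *Gadd45g* (r = 0.88) and *Ptrf* (r = 0.88), and *Id2* to *Zfp36l2* (r = 0.92) and *Kbtbd11* (r = 0.84). *Apold1* (r = 0.83) and *Esam* (r = 0.82) were among the genes most like *Id1*. *Bmp4* was nearest to *Fhl1* (r = 0.88) and *Sptbn1* (r = 0.87), *Bmp2* to *Cyth3* (r = 0.83) and *Spry4* (r = 0.83), and *Bmp7* to *Gfra1* (r = 0.82) and *Tenm2* (r = 0.77). *Bmp3* and *Grem1* reached a mean of 20 CPM in no lineage and were not compared.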

How the data were processed

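Single cells from the mammary glands of 4 mice were profiled by 10x 3′ sequencing. The deposited files hold raw UMI counts per gene and cell, made by the authors with Cell Ranger on mm10 with an EYFP sequence, and all columns were used. The file headers name version 6.1.2 and the submitters' processing notes version 3.1.0. A barcode was kept when over 500 genes were detected in it and mitochondrial genes made up less than 20% of its counts. Cells were gated on log-normalized marker lists, with score cuts set after the score distributions were seen. Cells past more than 1 lineage gate (782), which include doublets, and cells past none (662) were left out, and no further doublet caller was run. Of the barcode sequences, 51 occurred in 2 libraries (43 kept), and their profiles correlated at a median of 0.581 and at most 0.767, so all were kept. An EYFP-positive cell had at least 1 EYFP UMI.

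Counts were summed per mouse and lineage, since cells are not replicates. With at least 20 cells in every library, conditions were compared by edgeR 4.0.16 in R 4.3.3 (quasi-likelihood F test, TMM, filterByExpr), two-sided, with Benjamini-Hochberg adjustment over all genes tested. The EYFP split had the mouse as a block, and differences between lineages were interaction terms with the library as a block. With 2 mice per condition, p-values of the comparisons of conditions measure the spread between these mice. In the EYFP split and the differences between lineages the block takes out the level of each mouse. Their p-values rest on how the differences within mice vary from mouse to mouse. Clusters came from Seurat 5.3.0 with sctransform 0.4.2 (3000 variable genes, 20 components, resolution 0.4). The main edgeR fit of each comparison was also run on counts simulated from its own fitted model, which does not check that model against these data. The alternatives were not run on simulated counts. Alternatives were RLE factors, DESeq2 1.42.0, no count filter, a 10% mitochondrial limit, equal depth per sum, lineages from clusters, mixed cells included, free RNA subtracted, a replicate block, each library left out and, for EYFP, 2 UMIs, luminal ER- cells only and thinned cells.

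The 9 genes and the lists were chosen with earlier results of these data known. The 9 genes are named where they were tested, and of the pathway list at most 4 genes per direction and comparison, those with the largest called changes whose libraries did not overlap. Of 9 genes, 5 matched a RefSeq promoter.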

Additional observations from a re-analysis of the deposited data

Results flagged for a closer look

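For 6 values the effect of *Lats1/2* inactivation differed between lineages by a test of the difference (edgeR interaction term, adjusted over all genes). Over all genes tested, 22.9% of 13957 differed for luminal ER+ and 20.7% of 13689 for basal cells, so that differing is by itself no mark of these genes. In luminal ER+ against luminal ER- cells, *Id2* differed by 0.76 on the log2 scale and *Id3* by -2.60 (-3.21 to -0.86 over the alternatives). The *Id2* difference lost its call under 5 alternatives and was 0.09 with lineages from clusters (adjusted p = 0.694). In basal against luminal ER- cells, *Id1* differed by -2.49, *Id2* by -1.35, *Id3* by -4.18 (-5.23 to -2.43 over the alternatives) and *Id4* by -0.83 (-1.25 to -0.45), a call lost under 5 alternatives with an adjusted p of up to 0.718. In each pair the groups lie in the same 4 mice, and the direction is that of the lineage named first minus luminal ER-. For *Id3* the luminal ER- level of CTL mice was 9.1 and 9.41 CPM, the lowest of the epithelial gates. The luminal ER- gate held basal marker RNA at 57.1 and 47.1 CPM in CTL and 1351 and 952 CPM in *Lats1/2*-KO libraries, and its part in these differences was not tested.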

How the results depend on the processing

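The calls for *Bmp2*, *Bmp4*, *Id1* and *Id3* in luminal ER- cells, *Id1* in luminal ER+ cells, *Id2*, *Id3* and *Id4* in basal cells, *Bmp4* by EYFP, and *Bmp4* and *Id1* in EYFP = 0 cells against CTL kept their direction and stayed under an adjusted p of 0.05 in every alternative run that gave a test, as did the differences between lineages for *Id3* (luminal ER+), *Id1*, *Id2* and *Id3* (basal). Over single-gene values, 500 were the same, 21 weaker, 27 stronger and 15 reversed under alternatives other than leaving out a library, and 165 the same, 12 weaker, 13 stronger, 15 reversed and 7 moved without 1 library. The causes were not tested.

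Of the 9 genes, 1 was called in luminal ER+ cells, against 3 with DESeq2, 2 without the count filter, 3 at equal depth, 2 with lineages from clusters, 2 with mixed cells and 1 to 4 with a library left out. In fibroblasts 1 was called, against 3 without the filter, 2 with a replicate block and 0 to 1 with a library left out. In endothelial cells 2 were called, against 1 with DESeq2, 0 without the filter, 1 at the 10% mitochondrial limit, 1 with mixed cells and 0 to 3 with a library left out. By EYFP 3 were called, against 5 with cells past neither gate added (chosen after seeing the data) and 1 without the mouse block. Differences between luminal ER+ and luminal ER- cells were called for 2, against 1 with DESeq2, 4 without the filter, 1 at equal depth and 1 with free RNA subtracted. The highest lineage was the same for 8 genes, and for 5 with clusters, of which none was named perivascular.

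Of all genes, luminal ER+ calls fell from 3374 to between 1368 (without *Lats1/2*-KO 1) and 3073 with a library left out. Basal calls numbered 3219, 1684 with DESeq2 and 1717 to 2796 with a library left out. Fibroblast calls numbered 490, 823 without the filter, 208 at equal depth, 885 with the replicate block and 47 (without CTL 1) to 611 with a library left out. Endothelial calls numbered 584, 272 with DESeq2, 331 at equal depth and 0 without the filter, where edgeR left 1666 genes at an unadjusted p under 0.05. EYFP calls numbered 4344, 1218 with DESeq2, 97 without the mouse block and 1591 with thinned cells, and EYFP = 0 calls against CTL 6549, or 4128 to 6090 with a library left out. Differences numbered 3195 for luminal ER+ (2037 with DESeq2, 1497 at equal depth, 1220 to 3135 with a library left out) and 2837 for basal cells (1301, 933, and 1817 to 2483).

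The values that changed sign were not called in the main analysis. These were *Id2* in luminal ER- cells (-0.07 on the log2 scale, 0.07 with mixed cells, -0.55 to 0.26 with a library left out), *Bmp3* (0.08, -0.05 with clusters, -0.19 to 0.37), *Id2* (0.61, -0.09 with clusters) and *Id4* (0.75, -0.04 with clusters) in luminal ER+ cells, *Bmp7* in basal cells (0.09, -0.16 to 0.38) and *Id4* in endothelial cells (-0.89, -1.64 to 0.50). By EYFP, *Id1* (0.08) was -0.08 with cells past neither gate, -0.06 in luminal ER- cells alone and -0.27 to 0.46 in 1 mouse. In EYFP = 0 cells, *Id4* (-0.02) was 0.07 at equal depth, 0.16 with clusters, 0.07 with cells past neither gate and -0.20 to 0.13 with a library left out, and *Id2* (0.43) was -0.10 to 0.81. For the luminal ER+ difference, *Bmp3* (0.07) was -0.11 at the 10% limit, -0.64 with clusters, -1.88 with free RNA subtracted, -1.15 with cells past neither gate, 2.46 with mixed cells and -0.55 to 0.89 with a library left out, *Id1* (0.23) was -0.07 at equal depth and -0.41 with clusters, and *Bmp2* (3.29) was -3.55 to 4.68. Of these, alternatives called *Id2* in luminal ER- cells without *Lats1/2*-KO 2 (-0.55, adjusted p = 0.0302), *Id2* in luminal ER+ cells (1.16, adjusted p = 0.0411) and in EYFP = 0 cells (0.81, adjusted p = 0.017) without *Lats1/2*-KO 1, and, for the luminal ER+ difference, *Bmp3* with mixed cells (adjusted p = 0.0178) and *Bmp2* without the filter (3.22, adjusted p = 0.00744) and without CTL 1 (4.68, adjusted p = 0.000729). For the basal difference *Bmp2* (0.45) was -1.57 to 1.76.

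Equal replicate numbers did not mark paired mice, with correlations of deviations between 0.014 and 0.056, and the replicate block changed the number of called genes among the 9 in fibroblasts only (2 against 1, with *Bmp4* added at -1.72). For EYFP = 0 cells the correlation was -0.158, and with crossed pairing 3 of the 9 and 6962 of all genes were called. The basal difference had a median of 0.107 over all genes with TMM and 0.004 with RLE factors. Depth limits *Grem1*, *Bmp3* and *Bmp7* in luminal ER- cells, and CTL stroma with 22 to 56 cells per library.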
